A study of Mus musculus with 3264 samples.

Results

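Cytosolic ribosomal protein genes encode the proteins of the 40S and 60S ribosomal subunits. They were taken as every gene whose symbol is Rpl, Rps or Rplp followed by a number and an optional suffix, plus Rpsa, with symbols marked as pseudogenes (-ps) left out. The rule found 85 genes in both count tables, 33 with small-subunit and 52 with large-subunit symbols, out of 24781 genes in the cell line table and 25051 genes in the blood cell table. RNA was counted in single mouse cells, each placed in its own well. The cell line samples came from 3 murine lines that were mixed, namely leukemia cells, T cells and progenitor cells of the blood system (HPC), whose strain the labels give as NA. Cells were picked by ALPS, the study's automated live imaging and picking system, or sorted by FACS (fluorescence-activated cell sorting). Targeted selection of a named line gave 4 plates with 30 to 34 leukemia, 24 to 33 T and 17 to 21 HPC wells each. Random selection gave 4 plates with 75 to 87 wells, FACS 2 plates with 87 and 92 wells, and picking after time-lapse imaging 16 plates with 54 to 82 wells. C57BL/6J mice were the source of the peripheral blood mononuclear cells (PBMC), picked after time-lapse imaging onto 8 plates with 32 to 59 listed wells, of which all but 7 had at least 300 detected genes and were used.

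Ribosomal protein mRNAs are among the most abundant messages in growing mammalian cells, because each ribosome carries a single copy of nearly every one of these proteins. Many of the mRNAs start with a C followed by an unbroken stretch of pyrimidines, the 5′ terminal oligopyrimidine (TOP) tract, through which their translation responds to the mTOR pathway. Several proteins also have a paralog, a related gene whose product can take the same place on the ribosome, often in a particular tissue.

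The labels name no culture or animal, so each group counted as 1 sample, plates served as technical batches, and no test of a difference between groups and no p-value was computed. A CPM is a gene's count scaled so that all genes of the table sum to 1000000, taken from counts summed over the wells of a plate or group. A difference between lines was the mean over plates of the within-plate difference in log2(CPM + 1), and a gene was called when this mean reached 1.5-fold and every plate had its direction. The total count per well had a median of 35223 in target wells, 38194 in random wells, 26843 in FACS wells, 42537 after time-lapse imaging and 2147 for PBMC. Random, FACS and time-lapse wells were typed by the target line whose expression profile they resembled most, with all ribosomal protein genes left out, and are called profile wells. All leukemia and all T target wells had the profile of their label, as did 70 of 73 HPC wells. The FACS labels did not follow the RNA, since 23 of 66 leukemia, 24 of 68 T and 13 of 45 HPC wells had the labelled profile, and FACS wells were therefore typed by profile. The 5 fixed markers of the T line (Thy1, Bcl11b, Lck, Lat and Ly6a) summed to 1685 CPM in target T wells and to 595.5 CPM in time-lapse T-profile wells, with 2 of the 5 at 50 CPM or more and Thy1 at 5.84 CPM in the latter. Results on time-lapse T-profile wells carry that difference.

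In the target wells 81 of the 85 genes reached 50 CPM, with a range of 148.7 to 5889 CPM and a median of 2146 CPM. Of these 81, 74 lay within 2-fold of the median. Rpsa, the small-subunit protein also known as the laminin receptor precursor, was highest at 5889 CPM, followed by Rps12 at 4134, Rpl41 at 3922, Rplp1 at 3890 and Rps18 at 3706 CPM. Below the 2-fold band lay Rps27 at 1068.5, Rpl30 at 731.8, Rps27l at 528.9, Rpl32l at 234.7, Rpl7l1 at 149.4 and Rpl22l1 at 148.7 CPM. Per kilobase of the longest coding transcript, Rps28 came first at 8333 CPM per kb. It was followed by Rplp1 at 7795, Rps21 at 7583, Rps29 at 7437 and Rps12 at 7078 CPM per kb. Rpsa was at rank 24 on this scale, at 3039 CPM per kb. Each count stands for a barcoded molecule primed at its poly(A) tail, so counts need not rise with transcript length. The per-length ranking then favors short transcripts and does not replace the ranking in CPM.

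The sequences around the annotated start of genes that the results below turn on are shown here to compare their pyrimidine stretches. They come from the RefSeq promoter table (GRCm38.p6, the build called mm10), span 40 bases before to 20 bases from the annotated start, and run 5′ to 3′ on the transcribed strand. Capitals mark the longest stretch of C and T that begins with C within 10 bases of the start.
Rpl19, lower in T and HPC cells (chr11:98026670-98026729, plus strand): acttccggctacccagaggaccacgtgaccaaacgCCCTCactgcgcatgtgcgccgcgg
Rpl6, lower in T and HPC cells (chr5:121204461-121204520, plus strand): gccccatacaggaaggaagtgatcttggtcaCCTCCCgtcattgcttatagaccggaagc
Rpl36a, higher in T cells (chrX:134585614-134585673, plus strand): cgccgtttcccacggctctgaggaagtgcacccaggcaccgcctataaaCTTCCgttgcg
Rps4x, higher in T cells (chrX:102189372-102189431, minus strand): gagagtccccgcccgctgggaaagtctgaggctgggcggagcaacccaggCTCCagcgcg
Rpl22l1, higher in HPC cells (chr3:28805468-28805527, plus strand): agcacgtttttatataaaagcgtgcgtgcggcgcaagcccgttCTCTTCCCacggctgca
Rpl22, its paralog (chr4:152324396-152324455, plus strand): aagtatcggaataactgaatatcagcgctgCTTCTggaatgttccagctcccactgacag
Rps27, high in PBMC (chr3:90213629-90213688, minus strand): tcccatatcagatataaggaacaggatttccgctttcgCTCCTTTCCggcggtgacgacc
Rps27l, its paralog (chr9:66946046-66946105, plus strand): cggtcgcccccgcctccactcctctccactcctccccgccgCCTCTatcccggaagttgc

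A stretch of at least 6 bases by this definition, searched on the transcribed strand only, was present in 32 of the 64 ribosomal protein genes that the promoter table held (50%). The same search found one in 20.4% of all 27025 genes of the table and in 15 of 69 mitochondrial ribosomal protein genes (21.7%). The median stretch was 5.5 bases in the cytosolic ribosomal protein genes and 4 bases over all genes. Among the 8 genes shown, Rpl6, Rpl22l1 and Rps27 carried such a stretch. Rpl19 and Rpl6, both lower in T and HPC cells, had stretches of 5 and 6 bases, and Rpl36a and Rps4x, both higher in T cells, had 5 and 4 bases. An annotated start may lie away from the start in use. For Rpl22 the gene model used for lengths begins at 152325742 on chromosome 4, downstream of the window shown.

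Ribosomal protein genes together made up 19.3% of all counts in target leukemia wells, 18.4% in HPC wells and 16.8% in T wells. Over the 4 plates the share ran from 18.3 to 20.3% in leukemia wells, from 17.96 to 19.4% in HPC wells and from 15.03 to 18.2% in T wells. Single wells spanned 15.1 to 27% (median 19.3%) in leukemia, 13.9 to 25.8% (median 18.7%) in HPC and 12.6 to 23.2% (median 16.8%) in T wells, so the lines overlapped well by well. Within each plate T wells were below leukemia wells, by a mean of -2.48 percentage points (SD 0.72 over 4 plates). The same order of T below leukemia was seen on 4 of 4 random plates (-2.71 points), 2 of 2 FACS plates (-3.57 and -0.85 points) and 16 of 16 time-lapse plates (-2.02 points). The share in HPC wells against leukemia wells had no common direction: it was lower on 4 of 4 target plates (-0.76 points), higher on 4 of 4 random plates (0.24 points), higher on 2 of 2 FACS plates (0.65 and 5.41 points), and higher on 8 and lower on 8 time-lapse plates (0.04 points, SD 1.54). With Rn45s, the 45S pre-ribosomal RNA gene, left out of the total, T wells stayed below leukemia wells on every plate of the 4 sets, while HPC wells were below leukemia wells on 3 of 4 target plates (-0.65 points) and above them on 10 of 16 time-lapse plates (0.12 points). The 3 HPC target wells with another profile lie on plate 4. The share tended to fall with a well's total count, with a Spearman rho of -0.21 in target leukemia, -0.21 in T and -0.49 in HPC wells. The line differences above were not adjusted for total count. PBMC wells had a share of 14.7% over all wells, with the 8 plates between 11.8 and 17.5%.

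**Figure D1:**
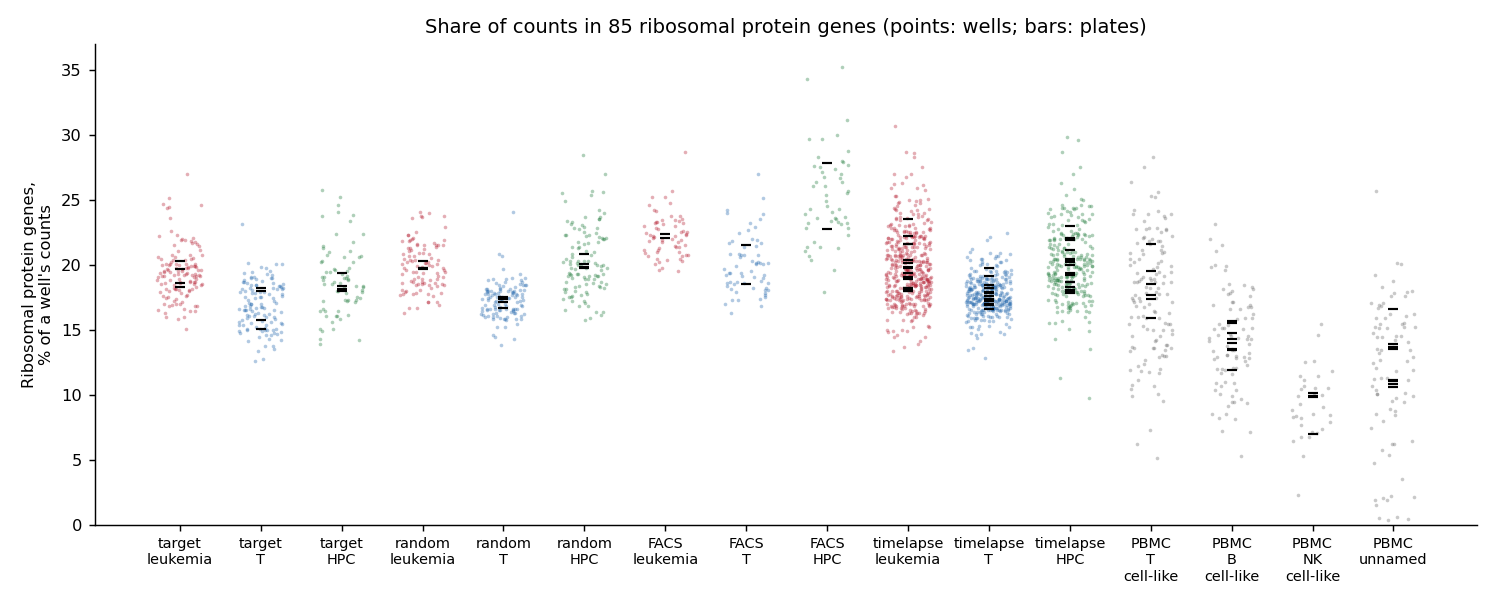
Share of each well's counts in the 85 cytosolic ribosomal protein genes, in percent, by set and line and by PBMC class, with a point for each well and a black bar for each plate with at least 5 wells of the group. T wells sit lower than leukemia wells in all cell line sets with overlap between wells, and the PBMC classes range from 9.04% in NK cell-like to 17.9% in T cell-like wells.

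The balance between the subunits, taken from summed counts, also differed in level in T wells. Large-subunit genes held 56.8% of the ribosomal protein counts in target leukemia wells, 56.4% in HPC wells and 53.8% in T wells. Random wells gave 56.6%, 56.1% and 53.8% in the same order, and FACS wells 56.6%, 55.7% and 53.6%. Time-lapse T-profile wells, at 55.7%, were closer to the 56.8% of leukemia-profile and the 55.8% of HPC-profile wells. These sums include Rplp1, Rpl19 and Rpl6, abundant large-subunit genes that were lower in T than in leukemia wells, as given below. The balance without these genes was not computed. Whether it differs apart from such single-gene differences was not tested.

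Between target T and leukemia wells, 13 of the 81 genes were called, 3 higher and 10 lower in T wells, while 42.1% of all 3800 genes tested were called. The called genes were 16.05% of the ribosomal protein genes, and the differences of all 81 had an SD of 0.40, against 1.52 over all genes, on the log2 scale. Their median difference was -0.17, against -0.03 over all genes. At 2-fold, 1 gene was higher (Rpl36a) and 3 were lower (Rplp1, Rpl19 and Rpl6), against 22.8% of all genes in either direction.

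The largest difference was in Rplp1, which encodes one of the acidic proteins of the ribosomal stalk, the flexible arm that recruits translation factors (chromosome 9, 61913284 to 61914542, minus strand, mm10). On plates 1 to 4 it was measured at 5743, 5481, 5149 and 5301 CPM in leukemia wells, at 6533, 5406, 5252 and 5188 CPM in HPC wells, and at 1923, 1929, 1114.5 and 1486.8 CPM in T wells. Every T plate lay below every leukemia and HPC plate, with a T minus leukemia difference of -1.78 on the log2 scale (plates -2.21 to -1.51). The separation held in single cells. T wells ran from 565.5 to 3077 CPM for Rplp1 (median 1647) and leukemia wells from 3762 to 9332 CPM (median 5498), and no T well reached the lowest leukemia well. HPC wells ran from 1765 to 9507 CPM and overlapped T wells at the low end; 3 HPC wells had another line's profile. Rplp1 was the only 1 of the 81 genes whose wells did not overlap between target T and leukemia, and 0.263% of all genes tested had no overlap. Its partners on the stalk did not share the difference: Rplp0 was at 2752 CPM in T and 2771 CPM in leukemia wells (-0.01), and Rplp2 at 1552 and 1703 CPM (-0.14).

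Rpl19, a large-subunit protein that reaches across to the small subunit, was lower in T wells as well (chromosome 11, 98026710 to 98030492, plus strand). It was measured at 5074, 4939, 4868 and 5079 CPM in leukemia wells and at 2376, 2366, 1908 and 2029 CPM in T wells of plates 1 to 4, a difference of -1.21 (plates -1.35 to -1.06). Rpl6, another large-subunit protein, gave 5216, 5105, 4480 and 4611 CPM in leukemia and 2436, 2468, 1916 and 2239 CPM in T wells, a difference of -1.10. For both genes no T plate reached any leukemia plate. The other lower genes were Rpl37a (1295.3 against 2497 CPM, -0.94), Rpl36 (-0.77), Rpl13 (2838 against 4780 CPM, -0.75), Rpl39 (-0.70), Rpl10 (-0.68), Rps29 (-0.63) and Rps2 (2491 against 3838 CPM, -0.63). Of the 10, 8 are large-subunit genes, while 52 of all 85 genes have large-subunit symbols.

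Rpl36a, a large-subunit protein near the site where tRNA leaves the ribosome, was higher in T wells (chromosome X, 134585654 to 134588062, plus strand). Its values were 2934, 2987, 2132 and 2220 CPM in T wells and 1302.8, 1295.03, 1249.3 and 1155.1 CPM in leukemia wells, a difference of 1.02 (plates 0.77 to 1.21). Rps4x, a small-subunit protein encoded on chromosome X (102184941 to 102189394, minus strand), was at 4114, 4093, 2987 and 3123 CPM in T wells and at 2448, 2379, 2074 and 2041 CPM in leukemia wells, a difference of 0.67. The 2 lines did not overlap over plates in either gene. Rpl32l, annotated as a processed pseudogene in GENCODE, was the third higher gene (299.02 against 195.8 CPM, 0.61). Rpsa reached 7400 CPM in T and 5300 CPM in leukemia wells, a difference of 0.48 that stayed under 1.5-fold. The 4 genes on chromosome X among the 81, picked out after their values were seen, were all called in this comparison: Rpl36a and Rps4x higher, Rpl10 and Rpl39 lower. The share called among all genes of chromosome X was not computed, while 42.1% of all genes tested were called. A pattern of the chromosome was therefore not tested.

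**Figure D2:**
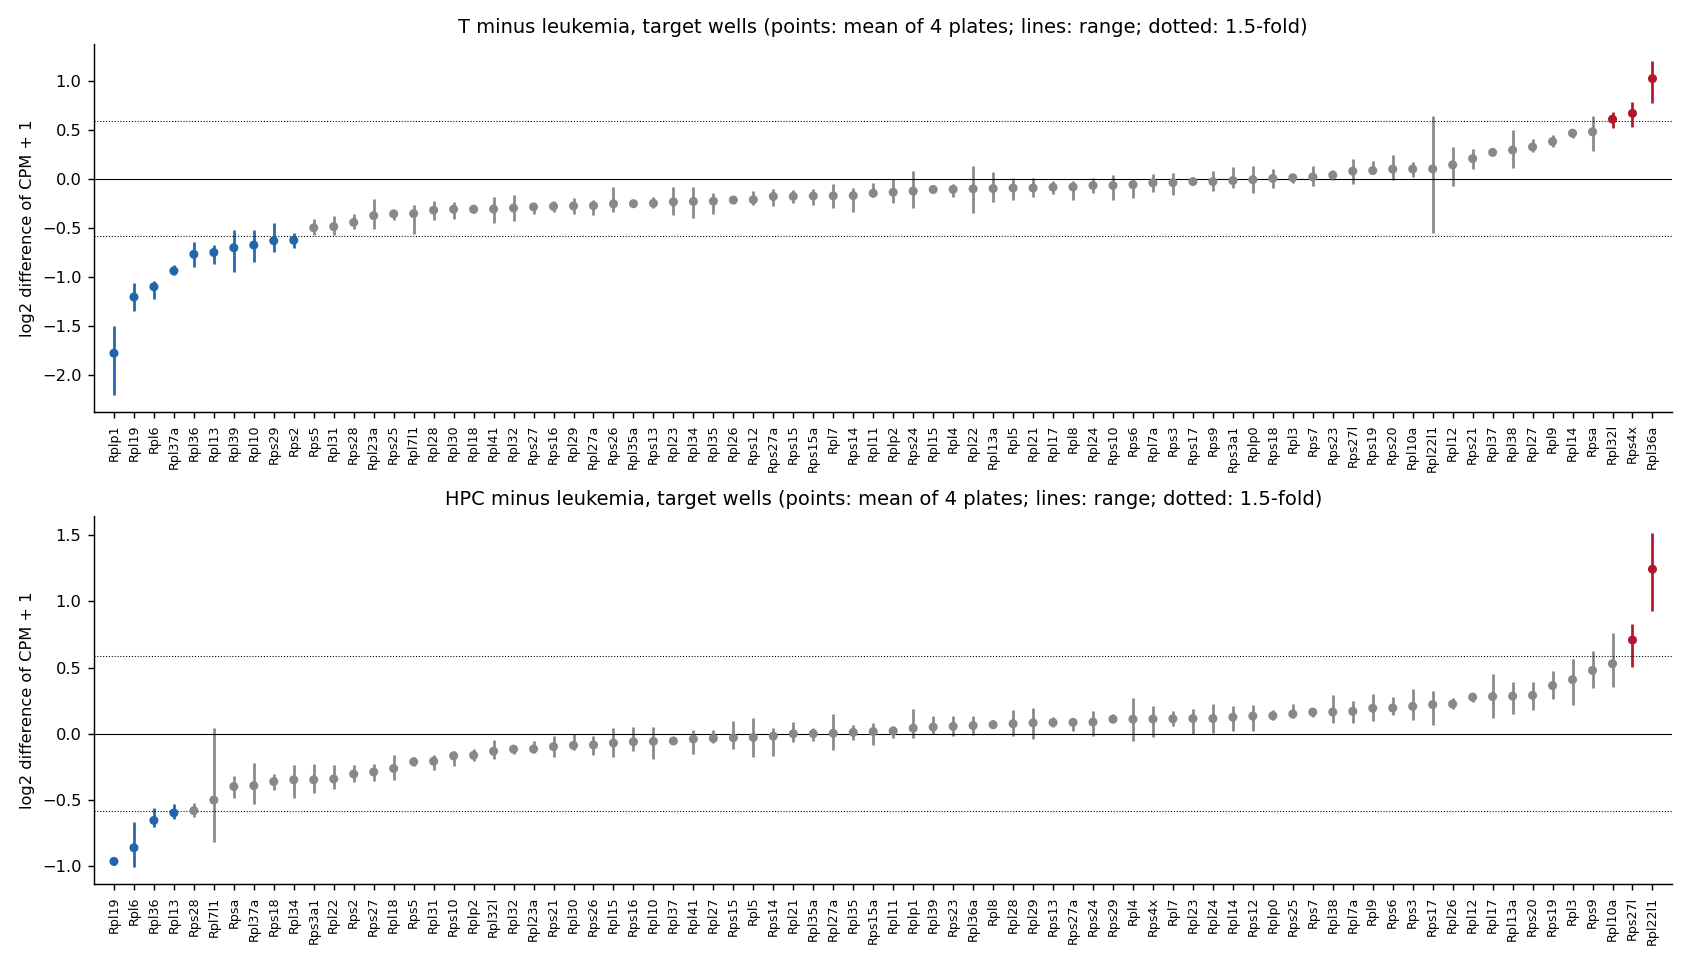
Difference of ribosomal protein genes from leukemia wells in target T wells (upper panel) and target HPC wells (lower panel), as the mean over 4 plates in log2(CPM + 1), with the plate range as a line, dotted lines at 1.5-fold and called genes in color; genes not reported here are not drawn. Most genes lie near a common level, while Rplp1 reaches -1.78 and Rpl36a 1.02 in T minus leukemia, and Rpl22l1 reaches 1.24 in HPC minus leukemia.

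Some genes with known roles outside the ribosome were near the common level in the target wells, and others were not. Rpl5 and Rpl11, which bind Mdm2 when ribosome assembly is disturbed, differed by -0.10 and -0.15 between target T and leukemia wells and by -0.03 and 0.02 between HPC and leukemia wells. Rps6, the target of the S6 kinases, differed by -0.06 and 0.19 in the same comparisons. Rps27a, which is made as a fusion with ubiquitin, differed by -0.18 and 0.08. None of these 4 was called in any comparison between target lines. Rpsa, also known as the laminin receptor precursor, was called between HPC and T wells. Outside the target wells, Rps6 was lower in time-lapse than in random T-profile wells. Rpl5 was lower in B cell-like than in T cell-like wells, as given below.

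HPC wells differed from leukemia wells in 6 of the 81 genes, 2 higher and 4 lower, against 36.7% of all 3697 genes tested. The median difference was 0.02, against -0.13 over all genes. Rpl22l1, the paralog of the large-subunit protein Rpl22, was the only gene above 2-fold, against 20.6% of all genes in either direction (chromosome 3, 28805436 to 28807424, plus strand). Its levels were 313.5, 243.2, 241.02 and 259.2 CPM in HPC wells of plates 1 to 4, 108.7, 99.3, 126.4 and 108.4 CPM in leukemia wells and 146.6, 155.9, 85.5 and 100.3 CPM in T wells. HPC wells were highest on each plate, with differences of 1.24 from leukemia (plates 0.93 to 1.52) and 1.14 from T wells. Rps27l, a paralog of Rps27 and a p53 target, was the other higher gene (744.4 against 454.7 CPM, 0.71). Rpl19 (2555 against 4995 CPM, -0.97), Rpl6 (2671 against 4868 CPM, -0.86), Rpl36 (-0.66) and Rpl13 (-0.60) were lower. This comparison and that of T with leukemia share the leukemia wells, in which Rpl19, Rpl6, Rpl36 and Rpl13 were higher than in both other lines. Scaling by the median of ratios over genes other than ribosomal protein genes, in place of the total, moved the median of all genes by 0.10 and left 3 genes higher and 2 lower, because Rpl36 (-0.55) and Rpl13 (-0.50) then fell short of 1.5-fold.

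HPC and T wells differed in 9 genes, 6 higher and 3 lower in HPC, against 41.2% of all 3744 genes tested. Higher in HPC wells were Rplp1 (5580 against 1630.5 CPM, 1.82), Rpl22l1 (1.14), Rpl39 (0.75), Rps29 (0.74), Rps27l (0.63) and Rpl10 (0.62). Rpl36a (-0.96), Rpsa (4008 against 7400 CPM, -0.88) and Rpl32l (-0.74) were lower. Rpsa was measured at 8350, 8459, 6703 and 6261 CPM in T wells of plates 1 to 4 and at 4124, 3855, 3927 and 4136 CPM in HPC wells, with no overlap.

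The comparison was repeated in wells that were not picked by line. In random wells, 2 genes were higher and 10 lower in T-profile than in leukemia-profile wells, against 43% of all genes called, and all 12 were also called in the same direction in target wells. FACS wells gave 3 higher and 9 lower (43.4% of all genes called), and time-lapse wells 3 higher and 10 lower (40.7% of all genes called). In all 4 sets Rpl36a and Rps4x were higher in T, and Rpl6, Rpl13, Rpl19 and Rplp1 lower. Rplp1 differed by -1.65 in random, -1.40 in FACS and -1.45 in time-lapse wells, and Rpl36a by 1.04, 1.201 and 1.302.

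Rplp1 also separated single wells in these sets, whose typing did not use it. Random T-profile wells ran from 877.9 to 3351 CPM and leukemia-profile wells from 3890.5 to 8583 CPM, and FACS wells from 1697 to 3934 against 4690 to 9727 CPM. Neither pair overlapped. In random wells Rpl19 had no overlap either (745.5 to 3292 against 3395 to 8741 CPM), so 2 of the 81 genes were free of overlap there, against 0.359% of all genes tested. FACS wells had 1 such gene, Rplp1, against 0.352%. HPC-profile wells stood clear of T-profile wells in Rplp1 in the random set (3536 to 9219 CPM; 0.281% of all genes tested had no overlap) and in the FACS set (4326 to 11081 CPM; 0.25% of all genes). In time-lapse wells the ranges of T (653.2 to 3476 CPM) and leukemia (3168 to 9383 CPM) met at their ends, and HPC wells (2745 to 12908 CPM) overlapped T wells too.

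**Figure D3:**
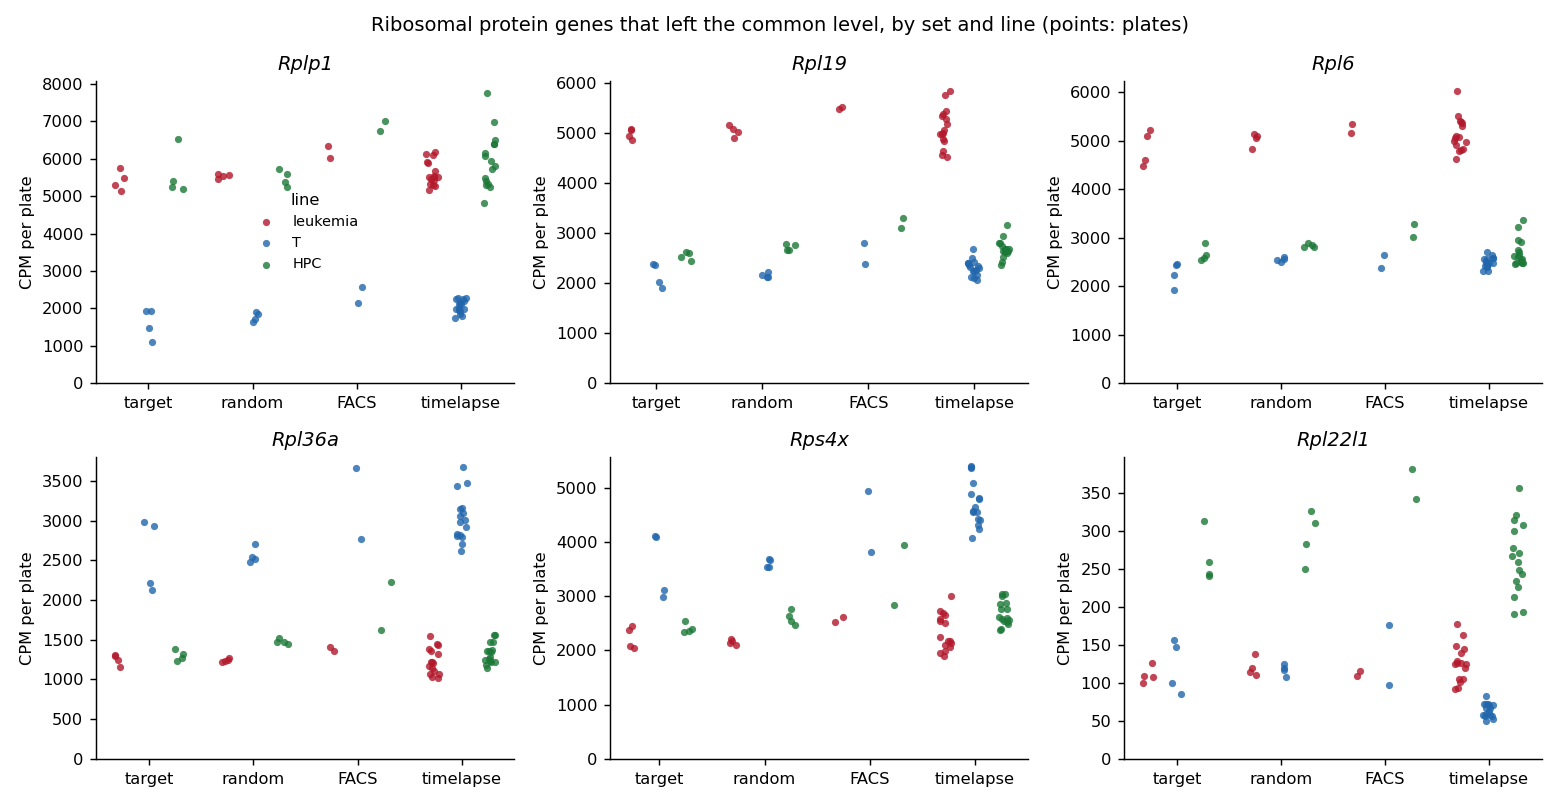
CPM by plate for 6 ribosomal protein genes that left the common level, by line and set, with a point for each plate with at least 5 wells of the line. Rplp1 in T wells is at most 2574 CPM on every plate of every set, and leukemia and HPC plates are at 4825 CPM or more.

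HPC-profile and leukemia-profile wells differed in 6 genes in random wells, 3 in each direction (41.7% of all genes called), in 9 in FACS wells, 7 higher and 2 lower (42.1%), and in 6 in time-lapse wells, 2 higher and 4 lower (41.6%). Rpl22l1 was higher in HPC in all 4 sets, by 1.27 in random, 1.68 in FACS and 1.06 in time-lapse wells, and Rpl6 and Rpl19 were lower in all 4. The 7 higher genes in FACS wells were Rpl22l1, Rpl10a (0.80), Rps9 (0.78), Rpl13a (0.67), Rps19 (0.67), Rpl3 (0.67) and Rpl17 (0.63). These accompany the higher total share of the FACS HPC-profile wells, 24.5% (plates 22.8 and 27.8%), against 22.3% in FACS leukemia-profile wells. HPC minus T gave 11 higher and 2 lower genes in random (48.6% of all genes called), 16 and 2 in FACS (47.5%) and 12 and 6 in time-lapse wells (45.6%). Rplp1, Rpl10 and Rpl22l1 were higher and Rpl36a lower in all 4 sets.

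Across the 81 genes, the T minus leukemia differences of target wells had a Pearson r of 0.98 with those of random and FACS wells and of 0.66 with those of time-lapse wells. For HPC minus leukemia the values were 0.98, 0.95 and 0.94, and for HPC minus T 0.95, 0.96 and 0.63. These are descriptions across genes, which are not independent replicates, and the line profiles came from the target wells.

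**Figure D4:**
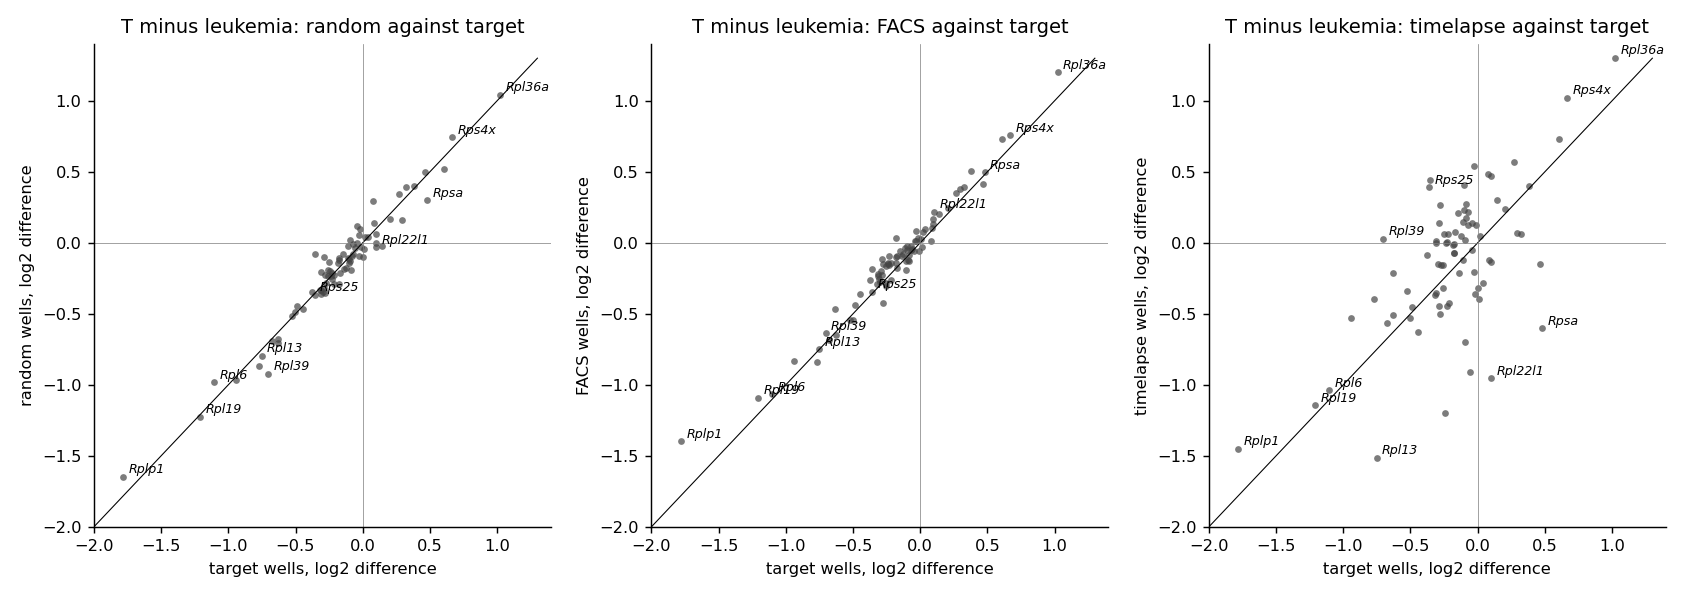
T minus leukemia difference of each of the 81 ribosomal protein genes in target wells (horizontal, log2) against random, FACS and time-lapse profile wells (vertical, log2, 1 panel each), with a line of equal values and some genes named. Points follow the line in the random and FACS panels (r of 0.98 in both) and scatter more in the time-lapse panel (r of 0.66).

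Both low values involve the time-lapse T-profile wells. Against random T-profile wells these differed in 8 of the 81 genes, 2 higher and 6 lower, with 35.9% of all 3783 genes called, where a call asks that at least 85% of plates of 1 set lie outside the range of the other. Among the lower genes Rps6 was at 1109.3 against 2072 CPM (-0.88), Rpsa at 3652 against 6650 CPM (-0.83), Rpl13 at 1663 against 2835 CPM (-0.73), Rpl22l1 differed by -0.87 and Rpl21 by -0.81. Rpl39 (2017 against 1109.7 CPM, 0.94) and Rps25 (3120 against 1902 CPM, 0.71) were higher. Time-lapse minus random called 0 of 81 genes in leukemia-profile wells (8.72% of all genes called) and 2 in HPC-profile wells, Rpl7l1 (-0.81) and Rps27l (-0.75), both lower (30.4% of all genes called). The time-lapse T-profile wells also lacked most of the T marker level, as given above, and all of them fell in a cluster of their own that held 2 other wells and no labelled target well. Set, plate batch and cell identity cannot be told apart here.

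FACS wells held a larger share of ribosomal protein counts than wells picked by ALPS: 21.9% over all FACS wells (plates 20.9 and 23.3%), against 18.8% in random wells (18.7 to 18.8% over 4 plates) and 18.8% in time-lapse wells (17.5 to 21.5% over 16 plates). Line by line the median ribosomal protein gene was lower in target than in FACS wells, by -0.21 in leukemia, -0.27 in T and -0.45 in HPC, against -0.09, -0.14 and -0.05 over all genes. Calls on every plate were few: 0 genes in leukemia (4.39% of all genes called), Rps27 alone in T (-0.59; 4.34%), and 6 genes in HPC (10.7%), among them Rps27 (-0.77), Rps23 (-0.63), Rps18, Rps14 and Rps16 (-0.61 each). Rn45s held 5.53% of counts in FACS wells, 9.19% in random, 13.05% in time-lapse, and 11.49, 10.8 and 12.4% in target leukemia, T and HPC wells. With Rn45s left out of the total, the ribosomal protein share was 23.2% in FACS, 20.7% in random and 21.7% in time-lapse wells. Plates were then at 22.03 and 24.8% in FACS, 20.4 to 21.1% in random and 20.3 to 25.7% in time-lapse wells. Both FACS plates thus lay inside the time-lapse range. On this scale target minus FACS called 0 genes in T and 1 in HPC. The share also tended to fall with a well's total count. Its Spearman rho with the total was -0.44 over all FACS, -0.47 over all random and -0.41 over all time-lapse wells. By profile line in these sets, rho ran from -0.63 (FACS HPC) to -0.05 (FACS leukemia). FACS wells had the lowest median total of the cell line sets. FACS and ALPS wells share no plate, so the method, the plate batch and the total count cannot be told apart.

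The paralogs followed the lines in different ways. Rpl22l1 made up 16.2% of the summed Rpl22 and Rpl22l1 counts in target HPC wells (plates 15.01 to 18.9%), 7.05% in T and 6.02% in leukemia wells. The share was 16.8, 6.87 and 6.56% in random, 16.5, 6.30 and 4.99% in FACS, and 15.8, 2.71 and 6.68% in time-lapse HPC-, T- and leukemia-profile wells. Rpl22 itself, needed for the development of alpha-beta T cells, was at 1359.2 CPM in HPC, 1616 CPM in T and 1725 CPM in leukemia target wells and was not called between them. Rps27l made up 43.04% of its pair with Rps27 in target HPC wells, 32.8% in T and 27.3% in leukemia wells. The pair leaves out Rps27rt, a copy that held 44.3% of its sum with Rps27 over the cell lines, which raises the Rps27l shares. In time-lapse wells the same share was 25.04% in HPC and 34.7% in T wells, so HPC was not the highest line in every set. Rpl32l, annotated as a processed pseudogene, made up 11.3% of its sum with Rpl32 in target T wells. It made up 6.29% in HPC and 6.35% in leukemia target wells. In random, FACS and time-lapse T-profile wells Rpl32l made up 11.03, 11.1 and 12.6%. Rpl7l1 made up 5.70, 7.57 and 8.49% of its pair with Rpl7 in target HPC, T and leukemia wells.

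Rpl3l, Rpl10l, Rpl39l and Rps4l stayed below 50 CPM. Rpl3l, a paralog of Rpl3 known from heart and skeletal muscle, had 40 counts in 29 wells on 15 plates, with at most 6 in a well. Of these, 39 fell in HPC wells (4 in target, 8 in random and 27 in time-lapse wells) and 1 in a time-lapse leukemia-profile well, with 0 in T wells and 0 in FACS wells. This amounts to 1.59, 2.32 and 2.97 CPM in target, random and time-lapse HPC wells, while a count of 0 (a floor of 3 counts) allows up to 2.34 CPM in FACS HPC-profile wells and 0.155 CPM in time-lapse T-profile wells. Rpl3l had 0 counts in PBMC wells, which allows up to 3.78 CPM. Rpl10l and Rpl39l, paralogs known from the testis, had 8.16 and 2 counts in the cell lines. Rps4l, annotated as a transcribed processed pseudogene in GENCODE, had 23.1 counts. Of its positive values, 86.96% were not whole numbers.

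PBMC wells were clustered without ribosomal protein genes and named from fixed markers, which made 39.2% of the wells T cell-like, with 89 B cell-like and 33 NK cell-like wells. Another 84 wells stayed unnamed, among them 44 led by the lung epithelial genes Scgb1a1 and Sftpc and 40 led by S100a9 and S100a8. A marker passed when found in at least 20% of a cluster's wells and 1.5 times as often as in other wells. In the 40 wells 6 of 15 T cell, 3 of 12 NK cell and 0 of 11 monocyte markers passed, although S100a8 and S100a9 are on the monocyte list. The ribosomal protein share was 17.9% in T cell-like wells (95% exact binomial interval 17.8 to 18.04%; plates 15.9 to 21.6%), 13.9% in B cell-like wells (13.8 to 14.1%; plates 11.9 to 15.7%) and 9.04% in NK cell-like wells (8.81 to 9.28%; plates 7.01 to 11.2%). Intervals cover counting error only. Within plates that held at least 5 wells of both classes, B cell-like wells were below T cell-like wells on 6 of 6 plates (-3.81 points), NK cell-like wells below T cell-like wells on 2 of 2 (-14.6 points on plate 5 and -9.60 on plate 6) and below B cell-like wells on 4 of 4 (-4.94 points, from -8.52 on plate 5 to -1.77). Plate 5 had an NK cell-like Rn45s share of 46.06%. With Rn45s left out of the total these orders held on the same plates, at -5.92 points for B against T, -15.3 and -13.08 points for NK against T, and -5.13 points for NK against B cell-like wells. Rn45s held 23.4% of counts in T cell-like, 19.5% in B cell-like and 24.9% in NK cell-like wells, and without it the shares were 23.4, 17.3 and 12.05%, in the same order. Median totals per well were 2213 in T cell-like and 1666 in NK cell-like wells, and 2155 and 1727 in the 2 B cell-like clusters.

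The composition of the ribosomal protein counts in PBMC differed from that of the cell lines in a few genes. Rplp1 was highest at 4540 CPM, followed by Rpl13a at 4377, Rps29 at 3868, Rps24 at 3290 and Rpsa at 3108 CPM. Rps27 moved from rank 76 in target wells to rank 14, at 2591 CPM and a log2 difference of 1.57 in its part of the ribosomal protein counts. Its paralog Rps27l moved the other way, with 17 counts in all PBMC wells (21.4 CPM) and a difference of -4.33. It made up 0.820% of the pair (95% interval 0.478 to 1.31%), with Rps27rt again left out. Rpl36a differed by -1.04. Across the 81 genes the 2 compositions had a Spearman rho of 0.67, a description across genes from tables of different depth and different cells. Rpl22l1 made up 21.3% of its pair with Rpl22 in T cell-like wells (16.9 to 26.1%), 13.5% in B cell-like wells (9.04 to 19.8%) and 25% in NK cell-like wells (10.7 to 44.9%), intervals that overlap.

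In NK cell-like against T cell-like wells 67 of the 80 genes tested were at least 1.5-fold lower and 1 was higher, while 22.4% of all 4062 genes tested were lower and 66.2% passed in either direction. With classes summed over plates, these calls rest on size alone. The median ribosomal protein gene differed by -0.94, and most of the genes shared the lower level. Over all genes the median was 0.41. The filter of 50 CPM in either class let genes pass on few counts in the small NK cell-like class, where 3 counts make 50.3 CPM. In T cell-like wells 3 counts make 9.44 CPM. Genes high in NK cell-like wells therefore passed more easily, and the values over all genes are not a like background. Rpl12, a large-subunit protein at the base of the stalk, was at 906.03 CPM in NK cell-like and 3442 CPM in T cell-like wells (-1.92, counting interval -2.35 to -1.53), and lower on 2 of 2 plates. Rps19, a small-subunit protein whose loss causes Diamond-Blackfan anemia in people, was at 1012.2 against 3398 CPM (-1.75), Rps20 at 973.1 against 3015 CPM (-1.63), Rps28 at 1224.8 against 3669 CPM (-1.58) and Rpl28 at 503.4 against 1497.1 CPM (-1.57). Rpl27 (-0.03) and Rpl10 (-0.06) were close to equal. The 1 higher gene, Rpl7l1, rests on 4 against 14 counts (0.60, -1.45 to 2.28).

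B cell-like wells were lower than T cell-like wells in 12 genes and higher in 1, while 18.6% of all 3689 genes tested were lower and 54.8% passed in either direction. The median difference was -0.32, against 0.27 over all genes. The count of 12 lower genes of the 80 tested is not read as a result about ribosomal protein genes. The values over all genes are not a like background here either. Rplp1 and Rplp0 had the largest lower differences: Rplp1 was at 2974 against 6294 CPM (-1.08, counting interval -1.22 to -0.94) and Rplp0 at 1954 against 3718 CPM (-0.93, -1.10 to -0.75), both lower on 6 of 6 plates. Rps16 (-0.77), Rpl5 (-0.77), Rpl12 (-0.71), Rpsa (-0.70), Rpl30 (-0.66), Rps23 (-0.66), Rps29 (-0.61), Rps15a (-0.59) and Rplp2 (-0.59) followed. Rpl22l1 (-0.72, -1.43 to -0.00) was lower on 4 of 6 plates only. Rpl7l1 was higher on 21 against 14 counts (1.397, 0.37 to 2.51). NK cell-like wells were lower than B cell-like wells in 45 genes and higher in 0, against 30.8% of all 4411 genes lower and 64.5% in either direction, led by Rpl28 (-1.51), Rps19 (-1.41) and Rpl22 (-1.26). The 3 PBMC comparisons share classes pairwise. The limit of the 50 CPM filter given above for NK against T cell-like wells holds for all 3, since the classes differ in summed counts.

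**Figure D5:**
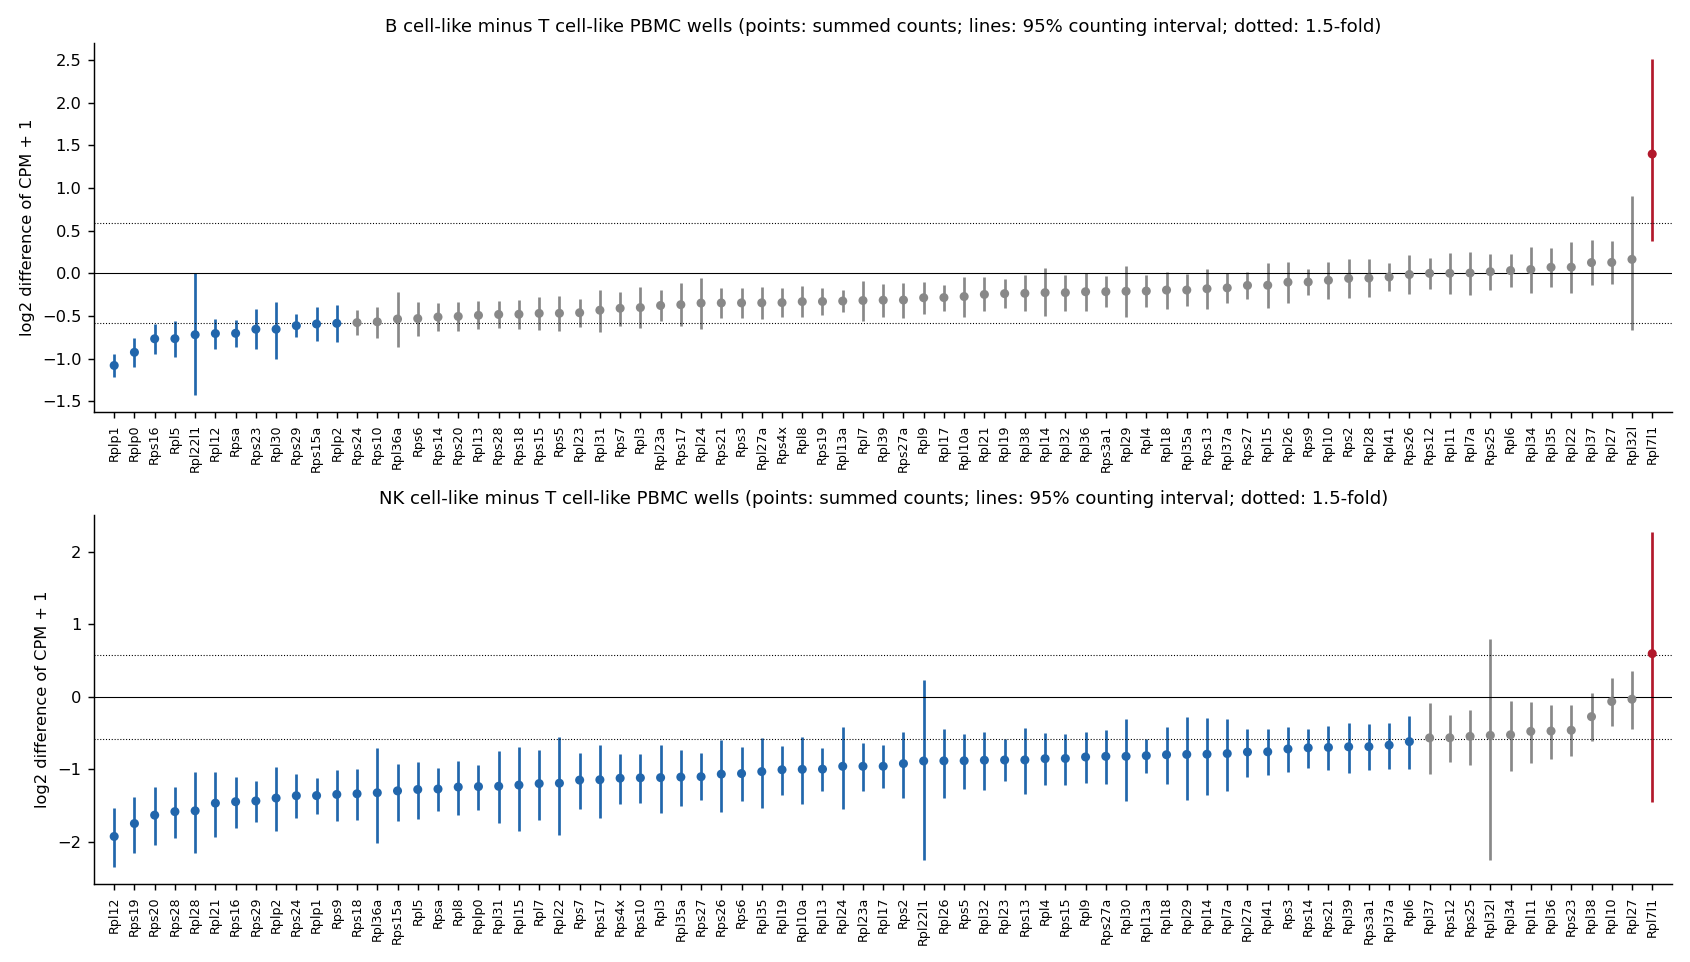
Difference of ribosomal protein genes between B cell-like and T cell-like (upper panel) and NK cell-like and T cell-like PBMC wells (lower panel) in log2(CPM + 1), with classes summed over plates, lines for the 95% counting interval and dotted lines at 1.5-fold; genes not reported here are not drawn. In NK minus T cell-like wells nearly all genes lie below 0, with Rpl12 at -1.92 and Rpl27 at -0.03.

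Related genes outside the symbol rule were read for comparison. Of 18 tested genes for translation factors and associated proteins, 1 was higher and 2 lower in target T than leukemia wells: Tpt1, whose mRNA also starts with a pyrimidine tract, at 1956 against 1032.9 CPM (0.93), Eef1b2, an elongation factor subunit, at 1200.6 against 1951 CPM (-0.69), and Rpl36al, the autosomal copy of Rpl36a, at 544.5 against 839.1 CPM (-0.63). Rpl36a and Rpl36al thus differed in opposite directions. In HPC against leukemia wells only Tpt1 was called (0.66), and between HPC and T wells none of the 18 was. Of 78 mitochondrial ribosomal protein genes in the table, 72, 66 and 68 were tested in the comparisons that follow. In these, 14 were higher and 15 lower in T than leukemia, 1 higher and 17 lower in HPC than leukemia, and 4 higher and 19 lower in HPC than T wells, while 42.1, 36.7 and 41.2% of all genes were called. Their medians were 0.00, -0.31 and -0.25, against -0.17, 0.02 and 0.21 for the cytosolic genes.

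Ribosomal protein genes have many near-identical copies in the genome, and many of their deposited values are not whole numbers. Whether such values come from counts split among copies was not tested. The median ribosomal protein gene had 23.04% of its positive values not whole in the cell lines, against 0.794% for the median of 10784 other genes. These groups were not matched for count level. In PBMC wells the corresponding medians were 1.22 and 0%. Among the highest were Rplp2 at 95.04%, Rps15a at 90.9%, Rps4l at 86.96% and Rpl37 at 83.1%. Rplp1, Rpl19, Rpl6 and Rps4x, whose differences held in all 4 sets, had 28.2, 26.3, 27.3 and 24.4%, and Rpl36a and Rpl22l1 had 62.2 and 55.3%. In PBMC wells the first 4 had 1.22, 0.91, 0.33 and 0.31%, and Rpl36a and Rpl22l1 had 8.73 and 69.7%. Rplp2 and Rps15a still had 73.4 and 64.6% there. How far values that are not whole come with high counts was not tested. Copies listed under their own symbols took a large part of some sums: Rps27rt held 44.3% of its sum with Rps27, Rpl34-ps1 43.9%, Rpl37rt 40.5%, Rplp2-ps1 40.4%, and Rpl36al 25.3% of its sum with Rpl36a. The levels of these genes, Rps15a and Rpl32l are therefore uncertain. The effect of any sharing of counts between copies on the differences was not tested.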

How the data were processed

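Per the labels' protocols, RNA in each well was fragmented by heat, primed with an oligo-dT primer carrying a molecular barcode, and amplified after template switching. The authors deposited expected counts per gene and well, of which 5.31% (cell lines) and 5.15% (PBMC) of positive values are not whole. bcl2fastq, STAR and mm10 are named per the submitters' processing notes. How counts were shared between copies is not given in the sources used here. Values were not divided by length unless stated.

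Counts were summed per plate and group with Python 3.11.15, numpy 2.4.6 and pandas 2.3.3. Genes at 50 CPM in 1 group or more were tested, with a pseudocount of 1 CPM. Wells were typed with scipy 1.17.1, and PBMC clustered with scanpy 1.11.5 and igraph 0.11.9 (Leiden, resolution 1). The within-plate call was run on simulated Poisson counts for target T minus leukemia only. The simulation held no spread between plates or cells beyond counting, so it cannot show how often such spread yields calls. The call rules between sets and between PBMC classes were not simulated. No doublet caller was run. Gene models and lengths are GENCODE M21. 2182 of 3264 labelled wells are listed. PBMC wells below 300 detected genes (7 wells) were left out.

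Named genes are the called members (at most 10 a direction by size), the 5 highest and 5 lowest, those near 0, fixed paralog sets, the 5 with most values not whole, and Rpsa, Rps6, Rpl5, Rpl11, Rps27a, Rpl38 and Rpl41. Members and lists were chosen with earlier results of these data known. A PBMC cluster was named when at least 3 markers of 1 type passed, more than of any other type. That type also needed at least as many of the 10 leading genes as any other, a rule set after the data were seen. The unnamed cluster of 44 wells had at most 2 passing markers of a type. The unnamed cluster of 40 wells had 0 T cell markers among its leading genes. Some members are not reported here by name.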

Additional observations from a re-analysis of the deposited data

Results flagged for a closer look

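The ribosomal protein share of NK cell-like PBMC wells on plate 5 was 7.01%, and the other 3 plates with at least 5 wells of the class (plates 1, 2 and 6) gave 10.1, 9.81 and 9.92%. The low plate was set apart by its gap to the next of these 4 plates relative to their range. With all 8 plates, 2 others were also below 9.04%, plate 8 at 7.77% and plate 3 at 8.19%, each with fewer than 5 wells. Rn45s, the 45S pre-ribosomal RNA gene, held 46.06% of the NK cell-like counts on plate 5, against 18.2, 18.8 and 17.4% on plates 1, 2 and 6. With Rn45s out of the total the share was 12.99% on plate 5 and 12.35, 12.09 and 12.005% on the other 3, so plate 5 was not low on that scale. Among 14 groups of plates examined this way, chance sets apart about 1 in 20.

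Between T and leukemia wells, 3 genes differed in opposite directions in target wells and in time-lapse profile wells, on every plate of both sets. Rpsa differed by 0.48 in target and -0.60 in time-lapse wells. Rps25, a small-subunit protein, differed by -0.36 in target and 0.39 in time-lapse wells. Rpl7l1 differed by -0.36 and 0.44. The difference between the sets was not tested. The time-lapse T-profile wells are those with the low T marker level.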

How the results depend on the processing

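Under the settings tried, 9 shares, 3 differences of share and 2 counts of called genes moved past the spread between plates or 1.5 times. No mean difference recomputed here changed sign; on single plates, HPC wells lay below leukemia wells on 4 of 4 target plates and, with Rn45s out of the total, on 3 of 4. With Rn45s out of the total the share was 21.8% in target leukemia, 18.8% in T and 21.1% in HPC wells, 20.7% in random, 21.7% in time-lapse and 19.1% in PBMC wells, and target minus FACS called 0 genes in T and 1 in HPC instead of 1 and 6. The smaller total raises each share by construction. On the same scale, chosen for differences after seeing the data, T minus leukemia was -3.15 and HPC minus T 3.50 percentage points in random wells, and B minus T cell-like wells -5.92. In wells at or above the median total the share was 17.8% in target HPC and 18.1% in random wells, and the median over random wells was 18.7%; the cause was not tested. Leaving out 1 plate at a time gave 18.9 to 19.6% in target leukemia, 16.3 to 17.2% in T, 18.2 to 18.6% in HPC, 18.7 to 18.8% in random, 20.9 to 23.3% in FACS, 18.7 to 18.9% in time-lapse and 14.5 to 15.2% in PBMC wells. Called genes then numbered 12 to 13 in target T minus leukemia, 6 to 8 in HPC minus leukemia and 8 to 9 in HPC minus T, and 12, 5 to 6 and 12 to 13 in random wells. Scaled by the median of ratios, HPC minus leukemia gave Rpl19 -0.86, Rpl36 -0.55 and Rpl13 -0.50, and HPC minus T 9 higher and 3 lower genes. Typing by cluster gave no value for time-lapse T wells, since no labelled well fell in their cluster. No paired analysis was possible because replicate numbers name single wells and no result comes from a test; line differences were taken within plates throughout. With about 2147 counts in a PBMC well and 33 NK cell-like wells, Rpl28 there rests on 30 counts and Rpl7l1 on 4.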
